A study of Mus musculus with 2 samples.

Results

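Sprouty and Spred proteins are intracellular inhibitors of the Ras-ERK cascade. Of this family, 5 genes were followed in lung group 2 innate lymphoid cells (ILC2s), namely Spry1, Spry2, Spry4, Spred1 and Spred2, out of 32285 genes listed in the count matrices. The members were taken by name, and their transcripts were read in every barcode that had 500 or more genes detected and no more than 10% of its UMIs from mitochondrial genes, which left 8394 of 10866 WT and 7087 of 9495 Pac1-/- barcodes. A UMI (unique molecular identifier) marks 1 captured transcript, so PCR copies are counted once.

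ILC2s live in the tissue, carry no antigen receptor and are a main source of IL-5 and IL-13. They were sorted from lungs of C57BL/6J mice aged 6 to 8 weeks, as live cells without lineage markers and with CD90.2, ST2 and Sca-1, and cells of 4 to 5 mice were pooled for each genotype with 13000 cells loaded. The groups were WT and Pac1-/-, the latter lacking PAC1, a nuclear phosphatase of ERK and other MAP kinases encoded by Dusp2, and no in vivo stimulus is given for these libraries. With 1 library per genotype there was no replicate check and no test between genotypes, and differences between mice, sorts and libraries cannot be told apart from the genotype. Every 95% interval below covers counting error only. The labels give no cell type to which the deletion was limited, so its effect in ILC2s and in other cells cannot be told apart.

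In the cascade, growth factor and cytokine receptors activate Ras, which activates Raf kinases, MEK and then ERK. ERK enters the nucleus and induces, among others, genes that restrain it: Sprouty proteins act at and below the receptor, Spred proteins recruit the Ras inactivator neurofibromin to the membrane, and dual-specificity phosphatases remove the phosphates from ERK. Sprouty transcripts are therefore widely read as part of the negative feedback of this pathway. In ILC2s, signals through the receptors for IL-7, IL-2 and neuropeptides feed into it.

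Both libraries held the labelled cells. At least 2 of 8 ILC2 genes were found in 98.8% of WT and 98.7% of Pac1-/- barcodes, while at least 2 of 4 B cell genes were found in 10 WT and 23 Pac1-/- barcodes and at least 2 of 3 epithelial genes in 64 and 167. At least 2 of 6 T cell genes, of which the Cd3 genes also occur in ILC2s, were found in 512 WT and 266 Pac1-/- barcodes, and at least 2 of 3 red cell genes in 66 and 209. Dusp2 had 1419 UMIs in WT (26.0 CPM, the count scaled to a common library total) and 5 UMIs in Pac1-/- (0.0857 CPM). Median depth of the passing barcodes was 4186.5 UMIs in WT and 5577 in Pac1-/-, and 15 of the passing barcode sequences occurred in both libraries. Red cell genes, which reach droplets as free RNA, summed to 70.1 CPM in WT and 246 CPM in Pac1-/-, and epithelial genes to 53.9 and 78.9 CPM.

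The windows of 250 bases before the start sites of Spry1 and Spry2 are shown because these members were the most abundant and differed from each other in Il5-positive cells. Both come from RefSeq on GRCm38.p6 and are written 5′ to 3′ on the strand of the gene, Spry1 at chr3:37639697-37639946 on the plus strand and Spry2 at chr14:105896820-105897069 on the minus strand. No base is in capitals because none of the motifs searched was found in either.
Spry1: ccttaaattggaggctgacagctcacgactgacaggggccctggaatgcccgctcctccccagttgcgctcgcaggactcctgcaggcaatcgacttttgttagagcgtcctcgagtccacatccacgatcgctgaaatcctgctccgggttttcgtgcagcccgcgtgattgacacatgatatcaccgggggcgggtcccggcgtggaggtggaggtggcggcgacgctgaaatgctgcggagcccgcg
Spry2: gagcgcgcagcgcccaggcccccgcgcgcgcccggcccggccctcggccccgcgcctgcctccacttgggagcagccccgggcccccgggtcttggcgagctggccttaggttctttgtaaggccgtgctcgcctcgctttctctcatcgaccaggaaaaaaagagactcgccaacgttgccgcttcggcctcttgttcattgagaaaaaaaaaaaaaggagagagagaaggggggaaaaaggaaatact
Each window had 23 CpG pairs and 62.4% G and C, where the median window had 52.4%.

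The motifs were searched on both strands. They were the CRE core TGACGT, present in 6.47% of all 32851 windows of this length, the AP-1 site TGANTCA in 6.75%, the EGR site GCGTGGGCG in 0.536%, the ETS site CCGGAAG in 6.91%, and the serum response CArG box in 1.47%. Of the 5 members, 4 had a window. The only match was a CRE core on the reverse strand of Spred2, 52 to 47 bases before its RefSeq start. That window runs from 19924192 to 19924441 on chromosome 11, while GENCODE starts Spred2 at 19924375. By GENCODE the match thus lies within the gene and not before it. None was found for Spred1, whose window had 70.8% G and C. These are matches of letters and no measure of binding.

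Spry2 was the dominant member in both libraries. It encodes a Sprouty protein that binds Grb2 and the ubiquitin ligase Cbl, and lies on chromosome 14 from 105891947 to 105896819 of GRCm38 on the minus strand. WT cells held 9600 Spry2 UMIs, or 176 CPM (172 to 179), and Pac1-/- cells held 9521, or 163 CPM (160 to 167). That level was above 94.0% of the 12427 genes with at least 50 UMIs over both libraries. Spry2 alone made up 66.0% of the UMIs of the 5 members in WT and 61.8% in Pac1-/-.

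Spry1, the other Sprouty gene with a clear signal, lies on chromosome 3 (37639947 to 37644598, plus strand). It had 2943 UMIs and 53.9 CPM (52.0 to 55.9) in WT, against 4069 UMIs and 69.7 CPM (67.6 to 71.9) in Pac1-/-. Its part of the family's UMIs was 20.2% in WT and 26.4% in Pac1-/-.

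Spred2 and Spred1 encode inhibitors with an EVH1 domain that hold Ras signalling at the step to Raf. Spred2, on chromosome 11 (19924375 to 20024026, plus strand), stood at 24.7 CPM (23.4 to 26.0) in WT and 17.4 CPM (16.4 to 18.5) in Pac1-/-. Spred1 lies on chromosome 2 (117121374 to 117182279, plus strand), the chromosome of the deleted Dusp2, and ends 10.2 Mb before it. Its level was 11.0 CPM (10.2 to 11.9) in WT and 13.1 CPM (12.2 to 14.1) in Pac1-/-.

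Spry4 was close to the limit of detection. Only 47 UMIs were counted in WT, or 0.861 CPM (0.633 to 1.15), and 37 in Pac1-/-, or 0.634 CPM (0.447 to 0.874). Spred3, a relative outside the 5 members, had 31 and 34 UMIs, and Spry3 had none in either library, which allows up to 3 UMIs in each. The order Spry2, Spry1, Spred2, Spred1, Spry4 was the same in both libraries, and the intervals of neighbours in this order did not overlap. Poly-A capture at the 3′ end gives about 1 UMI per captured transcript whatever its length, so these levels between genes were not divided by length.

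**Figure D1:**
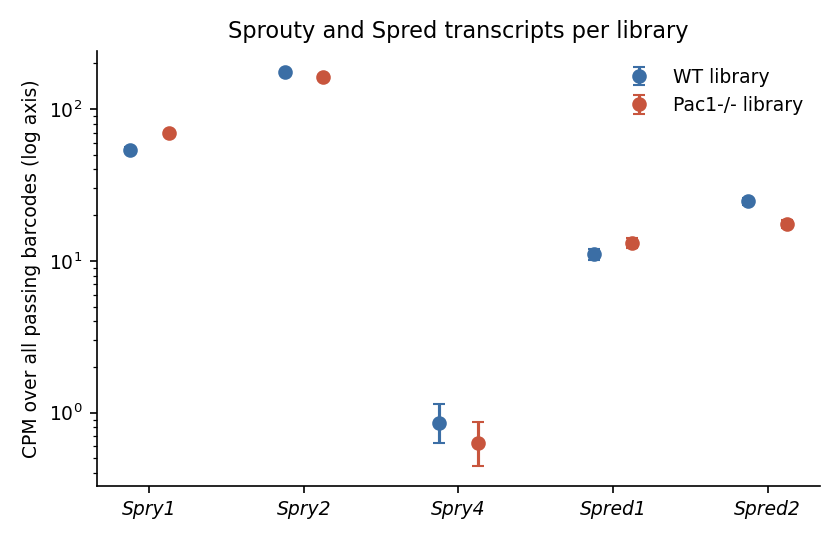
Level of each member in CPM (log axis) in the WT and Pac1-/- library, with exact 95% Poisson intervals of the counts where these exceed the point. Spry2 stands highest at 176 and 163 CPM and Spry4 lowest at 0.861 and 0.634 CPM.

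Per cell the transcripts were sparse. Spry2 had a UMI in 44.2% of WT and 48.2% of Pac1-/- cells, but these shares follow depth. Each cell was therefore thinned at random to 1500 UMIs, which kept 7634 WT and 6564 Pac1-/- cells and left out 760 and 523 shallower ones. At that depth the share of cells with Spry2 was 19.1% in WT (18.2 to 20.0) and 18.0% in Pac1-/- (17.1 to 19.0). Spry1 was found in 7.03% and 8.99%, Spred2 in 3.47% and 2.71%, Spred1 in 1.61% and 1.86%, and Spry4 in 0.118% and 0.061% of cells. Among cells with B cell genes, taken as a reading of free RNA, 1 of 10 in WT and 3 of 23 in Pac1-/- had a Spry2 UMI, and 0 of 10 and 1 of 23 a Spry1 UMI. Their intervals for Spry2 run from 0.253% to 44.5% and from 2.78% to 33.6%, so these few cells (median depth 4297.5 and 4652 UMIs, against 4445.5 and 5782.5 for all thinned cells) do not set a background below the measured shares. Background from free RNA was thus not resolved for any member.

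Spry1 and Spry2 occurred together in cells about as often as their separate shares give. Both were found in 102 WT cells, 0.996 times the number given by the product of their shares. In Pac1-/- both were found in 114 cells, or 1.07 times that number. Spry2 was found in 19.0% of Spry1-positive and 19.1% of Spry1-negative WT cells, and in 19.3% and 17.9% in Pac1-/-. Pairs with a Spred gene rested on at most 60 cells.

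Between the genotypes the family sum, most of it Spry2, was nearly level in CPM, at 266 CPM in WT and 264 CPM in Pac1-/-. Its members differed in direction. The sum held 14538 UMIs in 8394 WT and 15409 UMIs in 7087 Pac1-/- barcodes, so per barcode it was higher in Pac1-/-. The median of all 12427 genes was 0.19 higher in Pac1-/- on the log2 scale, so each ratio over all passing barcodes is given before and after subtraction of this median. Ratios in thinned cells and within status classes are given before subtraction only. Relative to the median gene the family sum was thus lower in Pac1-/-, and 2 of the 5 members lay above and 3 below.

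Spred2 was lower in the Pac1-/- library. Pac1-/- over WT gave a log2 ratio of -0.50 (-0.62 to -0.38) before and -0.69 (-0.81 to -0.57) after subtraction of the median, which is the percentile 9.98 of all genes. Counted per barcode without division by depth the log2 ratio was -0.16, since Pac1-/- barcodes were deeper. Spry4 had a ratio of -0.44 with an interval of -1.10 to 0.21, so its direction was not resolved.

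Spry1 was higher in the Pac1-/- library, with a log2 ratio of 0.37 (0.30 to 0.44) before and 0.18 (0.11 to 0.25) after subtraction, at the percentile 67.6 of all genes. Spred1 had ratios of 0.25 (0.10 to 0.41) and 0.064 (-0.092 to 0.22), so its difference from the median gene was not resolved. Past 1.5-fold relative to the median gene were 2 of the 5 members, Spred2 and Spry4, both lower. Of all genes compared, 12.8% were lower and 8.20% higher by that rule, with no library to show how far such ratios vary within a genotype.

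For Spry2 the direction depended on the scale. The log2 ratio of -0.11 (-0.15 to -0.067) became -0.30 once the median was subtracted, but 0.23 when UMIs were counted per barcode. In cells thinned to 1500 UMIs it was -0.032 (-0.13 to 0.067). Cells with an Il5 UMI, in which Spry2 was higher, made up 33.0% of thinned WT and 19.6% of thinned Pac1-/- cells. Within Il5-positive cells Spry2 stood at 213 CPM in WT and 223 CPM in Pac1-/-, a log2 ratio of 0.068 (-0.10 to 0.24). Within Il5-negative cells it stood at 129 and 136 CPM, a ratio of 0.079 (-0.047 to 0.20). At equal Il5 status no difference between the libraries was resolved before subtraction of the median, nor was one at equal Il13 or Il2 status. At equal Egr1 status the Spry2 ratio was 0.32 (0.077 to 0.55) in positive and -0.11 (-0.22 to -0.0029) in negative cells.

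For Spry1 and Spred2 the direction did not depend on Il5 status. The ratios here are before subtraction of the median, which was 0.19 over all passing barcodes. Subtraction would lower each ratio, so whether an interval reaches 0 depends on the scale. Spry1 had a log2 ratio of Pac1-/- over WT of 0.41 (0.062 to 0.75) in Il5-positive and 0.39 (0.20 to 0.58) in Il5-negative cells. Spred2 had -0.60 (-1.23 to 0.004) and -0.32 (-0.64 to 0.003), on 31 to 181 UMIs, so both intervals just reached 0. In Il2-positive cells the signs turned, at -0.16 (-0.71 to 0.38) for Spry1 and 0.031 (-1.04 to 1.09) for Spred2, both across 0. In the other classes by Il13, Il2 and Egr1 both genes kept their signs, with Spred2 at -0.039 in Egr1-positive cells.

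**Figure D2:**
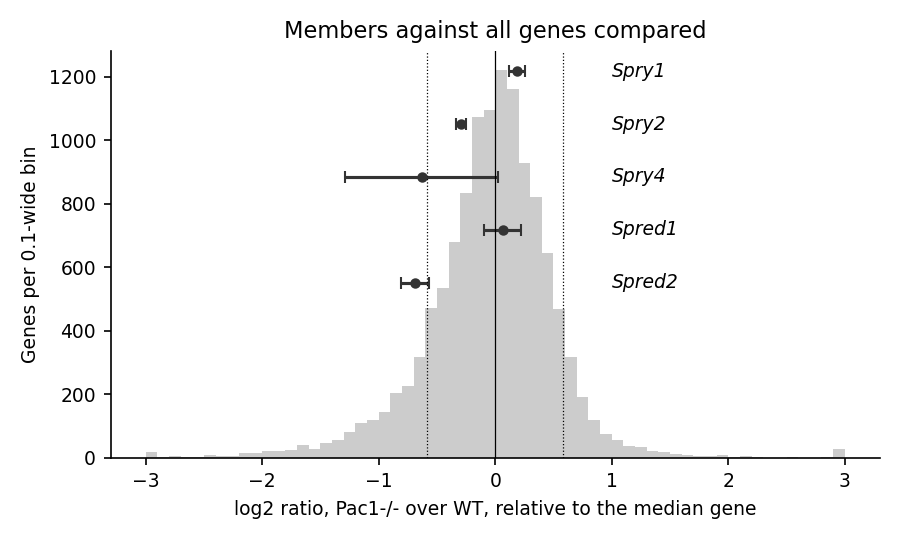
Grey bars count the 12427 genes by their log2 ratio of Pac1-/- over WT relative to the median gene, in bins of width 0.1 with values past -3 or 3 drawn at the edge, and points with 95% counting intervals show the members at heights chosen for legibility. Dotted lines mark 1.5-fold, and only Spred2 and Spry4 lie beyond them, at -0.69 and -0.63.

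The status of cells gave the clearest pattern. A cell was called positive for Il5, Il13, Il2 or Egr1 when at least 1 UMI of that gene remained after thinning, so that positive and negative cells had equal depth. Il5 marked 2519 WT and 1284 Pac1-/- cells, Il13 1050 and 598, Il2 578 and 503, and Egr1 1592 and 1151.

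Spry2 was higher in Il5-positive cells of both libraries. In WT it stood at 213 CPM (198 to 228) in Il5-positive and 129 CPM (121 to 137) in Il5-negative cells, a log2 ratio of 0.72 (0.59 to 0.86). In Pac1-/- the levels were 223 CPM (202 to 245) and 136 CPM (128 to 144), with a ratio of 0.71 (0.55 to 0.88). A Spry2 UMI was found in 25.1% of Il5-positive and 16.1% of Il5-negative WT cells, and in 25.2% and 16.3% of Pac1-/- cells. Relative to the median gene the ratios were 0.90 and 0.91, and 171 of 8946 genes in WT and 285 of 8933 in Pac1-/- had higher ones.

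No other member was higher in Il5-positive cells beyond counting error in both libraries. Spry1 stood at 47.4 and 52.0 CPM in Il5-positive and Il5-negative WT cells and at 62.8 and 68.2 CPM in Pac1-/-, with log2 ratios of -0.13 (-0.40 to 0.12) and -0.12 (-0.42 to 0.17). Without the barcodes holding at least 2 markers of another cell type (the T cell and red cell lists did not enter) these became -0.53 (-0.82 to -0.25) in WT and -0.36 (-0.68 to -0.056) in Pac1-/-, and with only Gata3 or Il1rl1 barcodes -0.40 (-0.67 to -0.13) in WT but -0.11 (-0.40 to 0.18) in Pac1-/-. With at least 2 Il5 UMIs for a positive cell they were -0.40 (-0.77 to -0.045) and -0.65 (-1.16 to -0.18), and with another random draw alone -0.11 (-0.36 to 0.14) and -0.17 (-0.47 to 0.13). Whether Spry1 was lower thus depended on the setting. Settings that left out barcodes also changed the random draw, so the part of each was not separated. Spred1 had ratios of 0.15 and 0.011 and Spred2 of 0.046 and -0.23, all with intervals across 0. With another random draw Spred2 was at 0.42 (0.076 to 0.76) in WT and 0.48 (-0.036 to 0.96) in Pac1-/-, so its sparse counts gave no stable ratio. Of the 4 members with at least 50 thinned UMIs, 1 (Spry2) was higher by 1.5-fold relative to the median gene in each library, where 6.57% of all genes were in WT and 8.34% in Pac1-/-. None was lower by that rule, where 5.72% of genes were in WT and 8.31% in Pac1-/-. Spry4 had 10 thinned UMIs in WT and 4 in Pac1-/-, too few for a ratio by status.

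**Figure D3:**
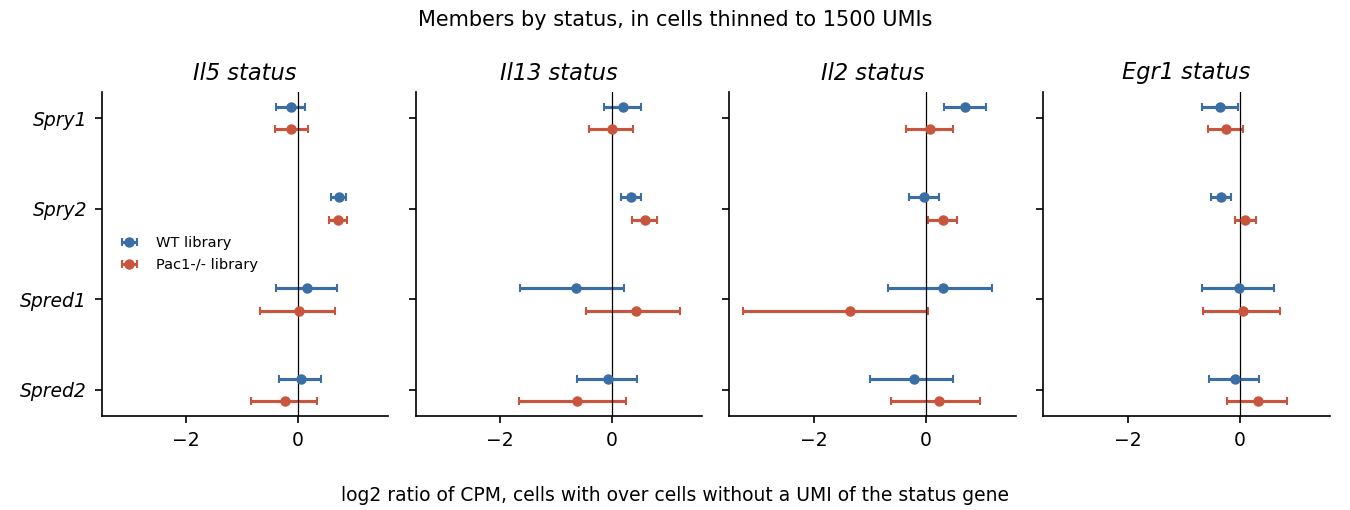
Log2 ratio of CPM in cells with over cells without a UMI of the status gene, 1 panel per status gene, for 4 members in the WT and Pac1-/- library with exact 95% intervals. Spry2 by Il5 lies at 0.72 and 0.71, and the interval of every Spred ratio spans 0.

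Il5-positive cells were deeper before thinning, with a median of 5552 against 4133 UMIs in WT and 7443.5 against 5584.5 in Pac1-/-. The comparison was therefore repeated within 4 depth bins of equal cell number. The log2 ratio of Spry2 by Il5 was 0.44, 0.87, 0.47 and 0.66 from the shallowest to the deepest bin in WT, and 0.89, 0.96, 0.51 and 0.57 in Pac1-/-, and all intervals lay above 0. Among other cell types, the 3 endothelial genes were higher in Il5-positive cells of both libraries, as Spry2 was, with summed levels of 56.6 against 31.4 CPM in WT and 55.0 against 34.6 CPM in Pac1-/-, and their part in the Spry2 ratio was not tested. Summed epithelial genes were 37.6 CPM in Il5-positive and 124 CPM in Il5-negative WT cells but 164 and 103 CPM in Pac1-/-. Summed B cell genes were 3.97 and 9.51 CPM in WT and 10.9 and 18.2 CPM in Pac1-/-. Red cell genes were 75.2 and 38.1 CPM in WT but 41.0 and 307 CPM in Pac1-/-, opposite in the libraries. ILC3 genes were 3.71 and 5.47 CPM in WT but 28.0 and 8.59 CPM in Pac1-/-. Myeloid genes were 0.794 and 3.39 CPM in WT and 1.04 and 19.7 CPM in Pac1-/-. The part of these in the Spry2 ratio was not tested. The 102 WT and 241 Pac1-/- barcodes with UMIs of at least 2 markers of another cell type, endothelial and epithelial lists included but T cell and red cell lists not, were then left out, and the Spry2 ratio stayed within the interval given above in both libraries. Only 17 WT and 21 Pac1-/- barcodes held at least 2 of the 3 endothelial genes, so this step does not test the summed endothelial difference.

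Spry2 stood higher in each class of cells with more Il5 UMIs. In WT it stood at 129 CPM in cells with 0, 174 CPM with 1, 216 CPM with 2 to 3 and 285 CPM (251 to 322) with 4 or more Il5 UMIs. In Pac1-/- the same classes gave 136, 184, 237 and 301 CPM (251 to 358). The values of the libraries lay within each other's counting intervals in every class. Intervals of the classes with 1 and with 2 to 3 Il5 UMIs overlapped in both libraries. In Pac1-/- those with 2 to 3 and with 4 or more also overlapped. Spry2 after thinning also differed by original depth, at 124, 124, 166 and 212 CPM from the shallowest to the deepest bin in WT. In Pac1-/- the bins had 145, 141, 159 and 167 CPM. The Il5 UMI classes were not split by depth, so the part of depth in these steps was not tested.

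Spry1 was lowest at the highest Il5 level. WT cells had 52.0 CPM (47.0 to 57.4) with 0, 56.1 with 1, 45.9 with 2 to 3 and 31.9 CPM (21.4 to 45.8) with 4 or more Il5 UMIs. Pac1-/- cells had 68.2 CPM (62.6 to 74.2), 79.8, 54.5 and 30.8 CPM (16.4 to 52.7). The interval of the highest class lay below that of cells without Il5 in both libraries, on 29 and 13 Spry1 UMIs. Spred1 and Spred2 showed no such steps beyond their intervals.

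**Figure D4:**
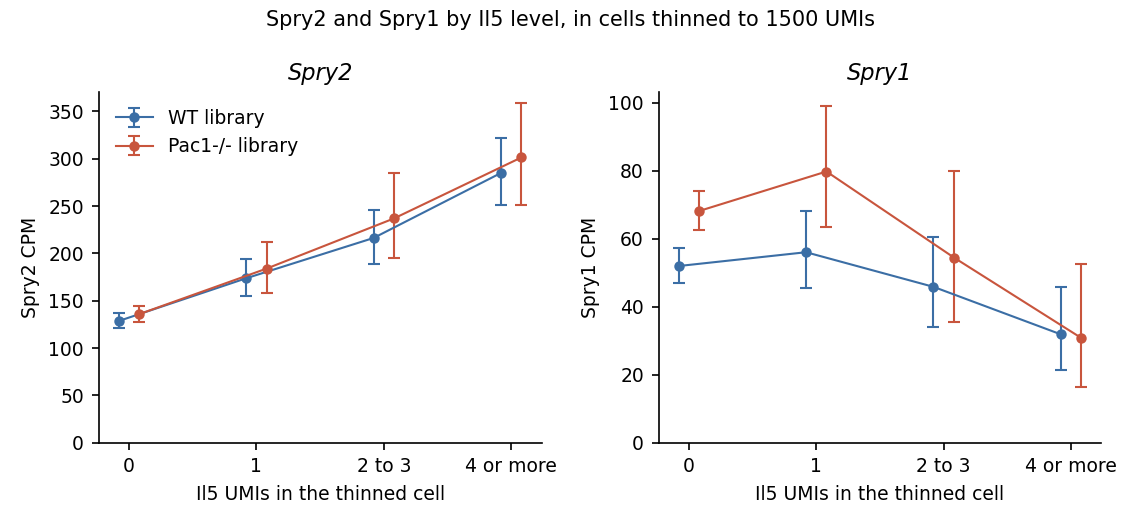
Spry2 (left) and Spry1 (right) in CPM with exact 95% Poisson intervals by the number of Il5 UMIs left in cells thinned to 1500 UMIs, for the WT and Pac1-/- library. Spry2 goes from 129 to 285 CPM in WT and from 136 to 301 CPM in Pac1-/-, while Spry1 is lowest in the class with 4 or more.

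Il13 gave a less even difference for Spry2, smaller than by Il5 in WT. Spry2 stood at 191 and 151 CPM in Il13-positive and Il13-negative WT cells, a log2 ratio of 0.34 (0.16 to 0.52). In Pac1-/- it stood at 219 and 146 CPM, a ratio of 0.58 (0.35 to 0.80). Whether this was smaller than by Il5 was not resolved in Pac1-/-. There the ratio by Il13 was larger at 3000 UMIs (0.78 against 0.70) and without the deepest 8% (0.89 against 0.83). By depth bin the ratio ran from 0.052 to 0.91 in WT and from -0.14 to 1.30 in Pac1-/-, so it did not hold in every bin. Cells with 2 or more Il13 UMIs had 233 CPM in WT and 262 CPM in Pac1-/-. By the rule of 1.5-fold relative to the median gene, 0 of 4 members in WT and 2 of 4 in Pac1-/- (Spry2 and Spred1, the latter on 15 UMIs in positive cells) were higher, against 4.49% and 9.34% of all genes. The direction of Spred1 was not resolved, with a log2 ratio of 0.42 (-0.47 to 1.20) in Pac1-/-. It was -0.28 with another random draw, -1.16 with only Gata3 or Il1rl1 barcodes and 0.99 with at least 2 Il13 UMIs. Lower were 0 of 4 in WT, against 9.19% of genes, and 0 of 4 in Pac1-/-, against 13.2%. Summed endothelial genes were 51.4 against 37.9 CPM in Il13-positive and Il13-negative WT cells and 72.5 against 35.2 CPM in Pac1-/-. Epithelial genes were 33.0 against 106 and 44.6 against 122 CPM, red cell genes 28.6 against 53.8 and 44.6 against 276 CPM, and ILC3 genes 4.44 against 4.96 and 59.1 against 7.71 CPM. Their part in the Spry2 ratios was not tested.

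Crossing both cytokines showed Spry2 at 126 CPM (118 to 135) in WT cells with neither, 208 CPM (192 to 225) with Il5 only, 153 CPM (126 to 183) with Il13 only and 228 CPM (196 to 264) with both. In Pac1-/- these classes had 132 (124 to 140), 215 (193 to 240), 193 (157 to 236) and 251 CPM (204 to 306). Cells with Il5 alone and with both did not differ beyond their intervals in either library. Spry1 ranged from 44.4 to 58.6 CPM over the same classes in WT and from 56.4 to 75.0 CPM in Pac1-/-.

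Il2 was accompanied by Spry1 rather than Spry2 in WT. Spry1 stood at 78.4 CPM in the 578 Il2-positive and 48.2 CPM in Il2-negative WT cells, a log2 ratio of 0.70 (0.32 to 1.07). In Pac1-/- the levels were 70.2 and 66.9 CPM and the ratio 0.071 (-0.36 to 0.48), but it was 0.71 (0.35 to 1.04) when only barcodes with a Gata3 or Il1rl1 UMI were used, a change of 173 barcodes with a new random draw, so no difference between the libraries can be read. Its interval also lay above 0 without thinning (0.31), at 3000 UMIs (0.42) and with at least 2 Il2 UMIs (1.01). The same held without barcodes holding at least 2 other markers (0.50) and without the deepest 8% (0.63). At 1000 UMIs (-0.11) and with another random draw (0.29) the interval spanned 0. Spry2 had ratios by Il2 of -0.029 (-0.30 to 0.23) in WT and 0.31 (0.044 to 0.56) in Pac1-/-, but the latter was 0.033 (-0.24 to 0.30) with only Gata3 or Il1rl1 barcodes and 0.19 (-0.18 to 0.54) at 1000 UMIs. In all other alternatives the Pac1-/- ratio of Spry2 lay between 0.28 and 0.76 with intervals above 0. The WT ratio of Spry2 was 0.13 (0.071 to 0.19) without thinning. In the other alternatives it ran from -0.074 to 0.40 with intervals across 0. The WT ratio of Spry1 ran from 0.45 to 1.19 over the alternatives, with intervals above 0. Past 1.5-fold, 1 of 4 members was higher in WT (Spry1, against 5.69% of genes) and none lower (9.43%). In Pac1-/- none was higher (5.46%) and 1 of 4 was lower (Spred1, on 4 UMIs in positive cells, against 9.06%). Summed epithelial genes were 26.5 against 101 CPM in Il2-positive and Il2-negative WT cells and 39.8 against 121 CPM in Pac1-/-, and red cell genes 31.1 against 51.9 and 591 against 227 CPM. The 8 dissociation and stress genes summed to 14337 against 12734 CPM in WT and 19271 against 16244 CPM in Pac1-/-. Of these, 7 in WT and 8 in Pac1-/- lay above the median gene, and none passed 1.5-fold. Their part in these ratios was not tested.

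Egr1 is an immediate early gene that ERK induces, and it also responds to tissue dissociation. Spry2 stood at 130 CPM in Egr1-positive and 163 CPM in Egr1-negative WT cells, a log2 ratio of -0.33 (-0.51 to -0.15). In Pac1-/- it stood at 162 and 151 CPM, with a ratio of 0.098 (-0.095 to 0.29). Without thinning the WT ratio was 0.013 (-0.047 to 0.072), where both the depth and the cells called positive differ, and with only Gata3 or Il1rl1 barcodes at equal depth it was -0.16 (-0.34 to 0.0096). The Pac1-/- ratio was -0.034 with another random draw, so the sign in Pac1-/- was not resolved. In the other 6 alternatives the WT ratio lay between -0.70 and -0.21 with intervals below 0. Spry1 had ratios of -0.35 (-0.68 to -0.035) in WT and -0.25 (-0.58 to 0.055) in Pac1-/-, but 0.053 and 0.16 with another random draw of UMIs, so no direction was resolved. No member passed 1.5-fold by Egr1, where 2.79% of genes were higher and 3.07% lower in WT and 2.65% and 4.22% in Pac1-/-. The 8 dissociation and stress genes summed to 16063 CPM in Egr1-positive and 12011 CPM in Egr1-negative WT cells and to 21171 and 15477 CPM in Pac1-/-, and their part in these ratios was not tested. Summed red cell genes were 140 against 26.6 CPM in WT but 99.6 against 288 CPM in Pac1-/-, opposite in the libraries, and epithelial genes were 28.5 against 113 and 49.8 against 129 CPM. The part of these was not tested either.

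In the few WT cells with a Dusp2 UMI no difference of a member from the rest was resolved. The 227 Dusp2-positive cells had 164 CPM of Spry2 against 156 CPM in the others, 49.9 against 50.5 CPM of Spry1 and 38.2 against 23.4 CPM of Spred2. The Spred2 log2 ratio of 0.71 rested on 13 UMIs and its interval ran from -0.22 to 1.51. Spry4 had 2 UMIs in these cells and 8 in the others.

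Over 21 classes of cells set by library and by the status of the 4 genes, the genes most like Spry2 in level were Errfi1, which encodes an inhibitor of the EGF receptor (Pearson r of 0.85), Cotl1, an actin-binding protein (0.84), and Rheb, a GTPase upstream of mTORC1 (0.83). For Spry1 they were Pip4p1, a phosphoinositide phosphatase (0.77), Atp5j, an ATP synthase subunit (0.71), and Prkch, a protein kinase C (0.70). They were picked from 4719 genes, the classes share libraries and differ in size, and the values are a description. Within the 11 WT and 10 Pac1-/- classes Errfi1 had an r of 0.93 and 0.77 with Spry2. The other 3 members had too few UMIs per class.

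Other genes of the pathway were read by lists taken from general knowledge. Of 15 genes of the ERK cascade, 1 was at least 1.5-fold higher in Pac1-/- relative to the median gene (Hras, 0.69, against 8.20% of all genes) and 1 lower (Braf, -0.70, against 12.8%), and the list median was -0.038. Of 9 Ras inhibitors and partners of Sprouty and Spred proteins, among them Cbl (-0.22) and Rasal3 (0.43), none passed 1.5-fold, but 7 lay below the median gene and 2 above, and the list median was -0.21.

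The lists of ERK phosphatases, ERK-responsive transcripts and receptors each held genes past 1.5-fold lower, where 12.8% of all genes were. Of 4 ERK phosphatases, Dusp4 (-1.25) and Dusp5 (-0.70) were at least 1.5-fold lower in Pac1-/-, none was higher, and Dusp6 stood at -0.15 and Dusp7 at 0.042. Of 10 ERK-responsive transcripts compared, 5 were lower, namely Fosl1 (-1.43), Ccnd1 (-1.38), Egr2 (-1.20), Etv5 (-0.94) and Egr3 (-0.74), and none was higher. Of the other 5, Myc stood at -0.27 and 4 lay above the median gene, namely Phlda1 (0.30), Ier3 (0.24), Ier2 (0.16) and Fos (0.021). Of 5 receptors that feed the cascade, Kit (-1.22), Il2rb (-1.05) and Il2ra (-0.68) were lower and Il7r was at 0.23 and Nmur1 at 0.16. The 5 members had a median of -0.30 beside list medians of -0.42, -0.51 and -0.68 for these groups, -0.21 for the Ras inhibitors and partners and -0.038 for the ERK cascade. All 8 dissociation and stress genes lay above the median gene (list median 0.20), and Hspa1a passed 1.5-fold.

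**Figure D5:**
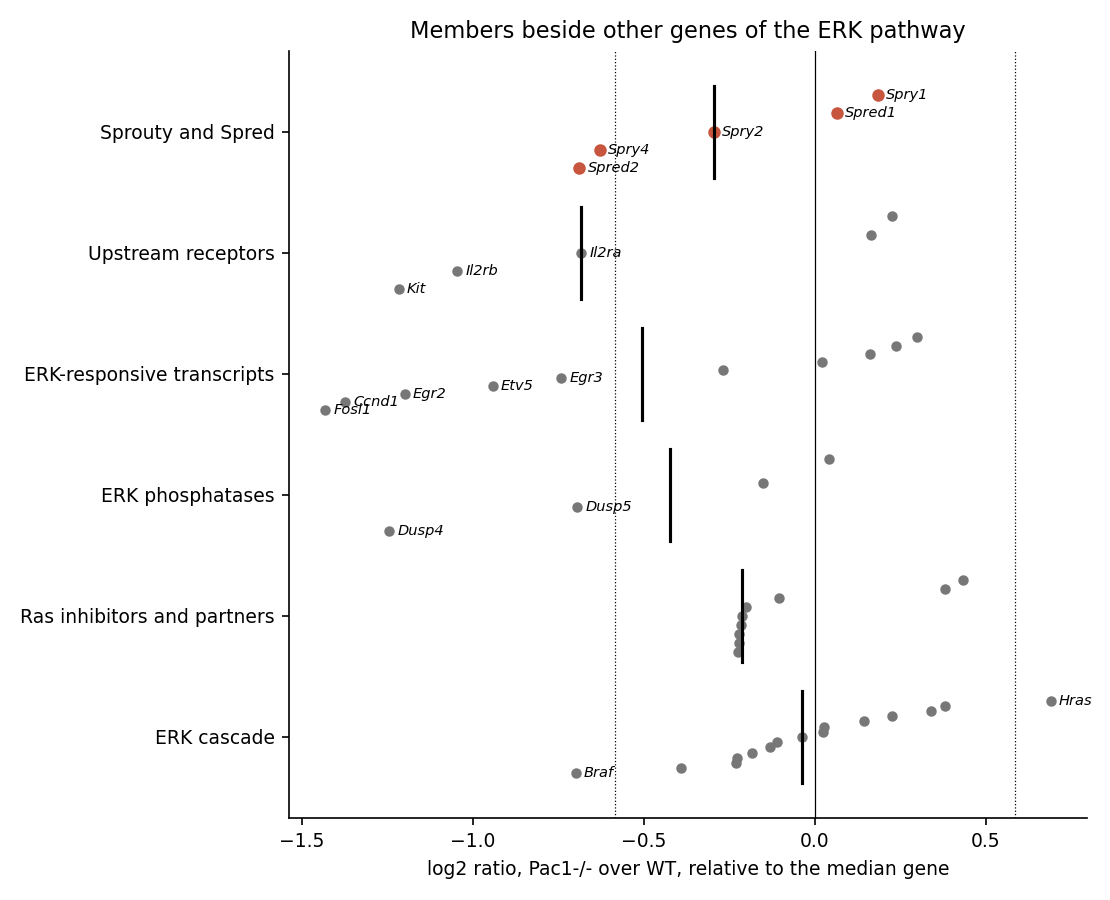
Log2 ratio of Pac1-/- over WT relative to the median gene for the 5 members (red) and the other genes of the pathway lists (grey), with a bar at each list median and names for the genes past 1.5-fold (dotted lines). Spry1 and Spred1 lie right of 0, and Spred2 and Spry4 lie with Dusp5 and Il2ra near -0.7.

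By Il5 status the phosphatase gene Dusp5 was also higher in positive cells. It stood at 849 and 531 CPM in Il5-positive and Il5-negative WT cells, a log2 ratio of 0.68 (0.61 to 0.74), and at 765 and 383 CPM in Pac1-/-, a ratio of 0.996 (0.906 to 1.09). Dusp4 had ratios of 0.80 (0.40 to 1.21) and 1.38 (0.75 to 1.99). Dusp6 stood at 0.14 (-0.089 to 0.36) and 0.011 (-0.28 to 0.30), and Dusp7 at -0.66 (-1.46 to 0.087) and -0.58 (-1.55 to 0.27). By 1.5-fold relative to the median gene 2 of these 4 phosphatases were thus higher in each library, where 6.57% of all genes were in WT and 8.34% in Pac1-/-. Dusp2, outside that list, was lower in Il5-positive WT cells, at 19.6 against 28.7 CPM, a log2 ratio of -0.55 (-0.95 to -0.16). Of the 5 receptors, Il2rb (1.10 and 1.59) and Il2ra (0.63 and 0.71) were higher by 1.5-fold relative to the median gene in both libraries, against the same shares of all genes. Nmur1 was lower by 1.5-fold in WT, as 5.72% of all genes were (-1.37, with an interval of -2.35 to -0.50, on 13 UMIs in positive cells) and stood at -0.30 (-1.29 to 0.57) in Pac1-/-. Kit stood at 0.064 and 0.069 and Il7r at -0.17 and -0.32. Of the ERK-responsive transcripts with at least 50 thinned UMIs, 8 of 9 in WT and 4 of 6 in Pac1-/- lay above the median gene, with list medians of 0.19 and 0.093 relative to it. Only Ccnd1 was higher by 1.5-fold, in WT (1.23, with an interval of 0.42 to 2.04), and it stood on 3 UMIs in positive Pac1-/- cells, while Ier3 was lower by that fold in Pac1-/- (-1.08, with an interval of -1.80 to -0.42). Of the 15 genes of the ERK cascade, 9 lay above and 6 below the median gene in WT, none passed 1.5-fold and the list median was 0.051. In Pac1-/- 5 lay above and 10 below it, and the list median was -0.076. There 3 were higher and none lower by 1.5-fold, where 8.34% of all genes were higher and 8.31% lower. Of the 9 Ras inhibitors and partners, none passed 1.5-fold relative to the median gene in WT and 1 (Rasa3, on 12 UMIs in positive cells) was lower in Pac1-/-, as 8.31% of all genes were.

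The summed level of dissociation and stress genes was lower in Il5-positive cells, at 11704 against 13423 CPM in WT and 14690 against 16910 CPM in Pac1-/-, the direction opposite to Spry2. In WT 3 of 8 were lower by 1.5-fold relative to the median gene, against 5.72% of all genes, namely Hspa1a, Hspa1b and Dnajb1, with log2 ratios of CPM of -0.82, -0.87 and -0.76 before the median was subtracted, and in Pac1-/- none was, against 8.31%. Their part in the Spry2 ratio was not tested. The summed level of the ERK-responsive transcripts, most of it Fos, was 3172 and 3424 CPM in WT and 3813 and 4097 CPM in Pac1-/-.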

How the data were processed

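The authors' deposited files held raw UMI counts for each gene in each barcode, made with Cell Ranger and the mm10 build, from droplet 3′ libraries (10x Genomics, v3.1 chemistry). The submitters' processing notes give version 6.1.1 and the file headers 4.0.0, and the annotation release is not given in the sources used here.

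Barcodes with at least 500 genes and at most 10% mitochondrial UMIs were kept. This left 54579034 UMIs in WT and 58338886 in Pac1-/-. UMIs were summed per library or status class and divided by the total UMIs (CPM). Poisson, conditional binomial and Clopper-Pearson intervals (95%) were exact and cover counting error only. No doublet caller was run, and the deepest 8% of barcodes were left out as an alternative. Status used cells thinned to 1500 UMIs (random seed 1), and ratios compared genes with at least 50 UMIs. Code for ratios, intervals and thinning was run on simulated Poisson counts. A simulated gene linked to the status gene was read by true status, not by the UMIs left after thinning. Thinned Spry2 counts varied more than Poisson counts, with a variance over mean of 1.21 in WT and 1.32 in Pac1-/-. The simulation thus does not test the intervals of the status ratios.

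Members and lists were chosen with earlier results of these data known. Named beside the members were Dusp2, list genes past 1.5-fold relative to the median gene, at most 2 others per list with the most UMIs (all others for the phosphatases, the ERK-responsive transcripts and, by Il5, the receptors, so that a list is not given by its lower or higher genes alone), and the 3 genes most like a member (Pearson r of log2 of CPM plus 10, over classes of at least 50 cells, among genes with at least 500 UMIs). Gene positions came from GENCODE on GRCm38. Python 3.11.15, numpy 2.4.6, scipy 1.17.1, pandas 2.3.3 and matplotlib 3.10.9 were used. By Il5 status the ERK cascade genes are given as counts only.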

Additional observations from a re-analysis of the deposited data

Results flagged for a closer look

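Spry2 by Egr1 status had opposite signs in the libraries, with a log2 ratio of Egr1-positive over Egr1-negative cells of -0.33 in WT and 0.098 in Pac1-/- and intervals that did not overlap. The Pac1-/- interval spans 0, and its sign was negative with another random draw (-0.034), with only Gata3 or Il1rl1 barcodes (-0.025) and without barcodes holding at least 2 markers of another cell type, T and red cell lists not used (-0.019). With only Gata3 or Il1rl1 barcodes the WT ratio was -0.16 (-0.34 to 0.0096). The intervals of the libraries overlapped in 5 of 8 alternatives, namely that one, another random draw, 1000 UMIs, without barcodes holding other markers and without the deepest 8%. In the other 7 alternatives the WT ratio was below 0 with its interval in 6, from -0.70 to -0.21, and 0.013 without thinning. The difference was not tested, since there is 1 library per genotype.

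Barcodes outside the filter on genes and mitochondrial UMIs, 2472 in WT and 2408 in Pac1-/- with a median of 599 and 596 UMIs, also carried the members. Spry2 stood there at 201 CPM in WT and 225 CPM in Pac1-/-, and Spry1 at 52.4 and 58.1 CPM. Spred2 stood at 24.3 CPM in WT and 28.3 CPM in Pac1-/-, where its Pac1-/- interval of 21.3 to 36.8 CPM lies above the 17.4 CPM of the passing barcodes. Spred1 stood at 13.7 and 19.0 CPM. There are no control samples for these barcodes, and each value exceeds the 3 UMIs that a count of 0 allows.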

How the results depend on the processing

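No paired analysis was possible because each genotype has 1 library, and its replicate number is only a name. For values without a test, a change was counted when the value left the main 95% interval. Of 97 alternative values of the main results, 58 stayed within it (or within 1.5 times the count), 36 moved and 3 reversed. The causes were not tested beyond what the settings themselves change.

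Relative to the median gene, the log2 ratios of Pac1-/- over WT became 0.18 (Spry1), -0.30 (Spry2), 0.064 (Spred1) and -0.69 (Spred2). Per barcode they became 0.71, 0.23 (reversed), 0.59 and -0.16. Thinned to 1500 UMIs they became -0.032 (Spry2), -1.10 (Spry4) and -0.38 (Spred2), and with 1000 to 2500 genes and under 5% mitochondrial UMIs -0.031 (Spry2). Splitting thinned cells by Il5, an alternative chosen after seeing the data, gave Spry2 0.079 without and 0.068 with Il5 (both reversed), Spred2 -0.32 without and Spred1 0.093 with Il5. With Il5, Spry4 had no Pac1-/- UMI and no ratio.

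Members with a log2 ratio of CPM above 0 in both libraries, whatever the interval, were also counted. By this rule 2 of 5 members were higher for Il5, 1 for Il13, 1 for Il2 and 0 for Egr1. The second for Il5 was Spred1, at 0.15 and 0.011 with intervals across 0. The share of all genes by this rule was not counted, so the number is no result about the members. It rests on small ratios of sparse members. For Il5 it was 1 at 1000 UMIs. For Il13 it was 3 without thinning, and 2 at 1000 UMIs, with another seed, with at least 2 status UMIs, with only Gata3 or Il1rl1 barcodes, without barcodes holding at least 2 markers of another cell type (T and red cell lists not used) and without the deepest 8%. For Il2 it was 2 without thinning, at 3000 UMIs and under the same last 4 settings. For Egr1 it was 2 without thinning and with another seed, and 1 with at least 2 status UMIs and with only Gata3 or Il1rl1 barcodes.

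Spry2 by Il5 stayed positive in all settings, from 0.50 to 0.95 in WT and 0.54 to 0.98 in Pac1-/-. In WT it was 0.50 at 1000 UMIs, 0.57 at 3000 UMIs and 0.95 with at least 2 Il5 UMIs, and in Pac1-/- 0.54 without thinning and 0.98 with at least 2 Il5 UMIs. Reversed single values were those by Egr1 in WT, Spry1 at 0.057 without thinning and 0.053 with another seed and Spry2 at 0.013 without thinning. Depth limits Spry4 in all comparisons and Spred1 and Spred2 by status.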
